A study of Mus musculus with 25 samples.

Results

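The genes described here are the CLCA family of the mouse, 7 genes named as chloride channel regulators: Clca1, Clca2, Clca3a1, Clca3a2, Clca3b, Clca4a and Clca4b. They were found by symbol among the 49452 gene identifiers of the deposited table, and 6 of the 7 were among the 19266 genes tested, since Clca2 did not reach the minimum level. The family was chosen from measured values: those of Clca4b in NEMOIEC-KO against Nemofl/fl and in NEMOIEC-KO Il12b-/- against NEMOIEC-KO were already known. Values in those 2 comparisons are therefore given as a description, without a p-value. The other comparisons share libraries with them and give no independent evidence.

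RNA of the distal colon was sequenced from 25 mice aged 6 weeks on the C57BL/6 background, 5 separate mice in each of 5 genotypes. Nemofl/fl mice carry a floxed gene for NEMO (Ikbkg), a subunit of the kinase complex that activates NF-kB, and NEMOIEC-KO mice have lost NEMO from the epithelium of the gut. In 3 double mutants the epithelial deletion is joined by the label Il12b-/- (p40, common to both IL-12 and IL-23), Il12a-/- (p35 of IL-12) or Il23a-/- (p19 of IL-23). They are written by the second label alone from here on. Thus 4 of the 5 groups share the epithelial deletion, and the study asked how loss of each subunit changes the inflamed colon. The labels name neither the Cre line nor the mutant alleles. The tissue was not separated into cell types, so fewer cells of a type and less RNA per cell cannot be told apart.

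CLCA proteins are secreted or membrane-bound, and those with a working metal-binding protease domain cleave themselves. They take their name from calcium-activated chloride currents, which they influence without being channels. In the gut Clca1 is a protein of goblet cells that is secreted into the mucus layer, Clca4a and Clca4b are counterparts of human CLCA4 and belong to the enterocyte lineage, and Clca2 is known from keratinocytes and other squamous epithelia.

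All 7 genes lie side by side on the minus strand of chromosome 3 (build GRCm38). In the order of the map they are Clca3a1 (ENSMUSG00000056025, chr3:144729677-144760977), Clca3a2 (ENSMUSG00000028262, chr3:144796559-144819494), Clca3b (ENSMUSG00000037033, chr3:144822623-144849357), Clca4b (ENSMUSG00000074195, chr3:144910921-144932529), Clca4a (ENSMUSG00000068547, chr3:144952480-144975045), Clca1 (ENSMUSG00000028255, chr3:145003817-145032776) and Clca2 (ENSMUSG00000036960, chr3:145070263-145099443). The pseudogene Clca4c-ps lies between Clca3b and Clca4b. The longest reading frames of Clca3a1 and Clca3a2 were 97.1% identical and those of Clca4a and Clca4b 96.0%. Clca3b was 87.0% identical to each of Clca3a1 and Clca3a2, and the other pairs had 59.8% to 66.4% identity.

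Near-identical copies bear on what a value can mean. Of the 76-base stretches in a gene's annotated transcripts, the read length in the labels, 12.8% for Clca3a1, 13.0% for Clca3a2, 24.5% for Clca4a and 12.2% for Clca4b also occurred in another gene's transcripts. The share was 1.99% for Clca3b, and none was shared for Clca1 or Clca2. How reads that fit more than 1 gene were counted is not given in the sources used here, so the split between Clca3a1 and Clca3a2, and among Clca4a, Clca4b and the pseudogene, is uncertain to that extent.

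Promoter sequences from RefSeq (GRCm38.p6) were used for 4 of the 7 genes: Clca2, Clca3a1, Clca3b and Clca4b. Shown are the bases before the start of Clca4b (chr3:144932530-144932779), the member with the widest range between genotypes, written 5′ to 3′ on the minus strand. Capitals mark its 2 matches to the motif TATAAA, both on the opposite strand, so that they read TTTATA here.
Clca4b: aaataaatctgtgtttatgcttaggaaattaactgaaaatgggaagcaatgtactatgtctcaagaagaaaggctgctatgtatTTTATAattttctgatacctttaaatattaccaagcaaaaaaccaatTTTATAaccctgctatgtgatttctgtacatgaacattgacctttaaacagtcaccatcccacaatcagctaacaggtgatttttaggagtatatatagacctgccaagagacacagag
In 250 bases before the start, on both strands, none of the 4 genes held a STAT motif of the GAS type (TTC and GAA separated by 3 bases), which 7.02% of 32851 promoters held, or of the STAT6 type (separated by 4 bases), which 5.85% held. An ISRE core (GAAA and GAA separated by 2 bases) was found in Clca3a1 and in 7.13% of all promoters, and an NF-kB motif in none of the 4 genes and in 7.25% of all promoters. TATAAA was found in Clca4b, of these 4 genes, and in 12.4% of all promoters. These are matches of letters, not sites of binding.

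**Figure D1:**
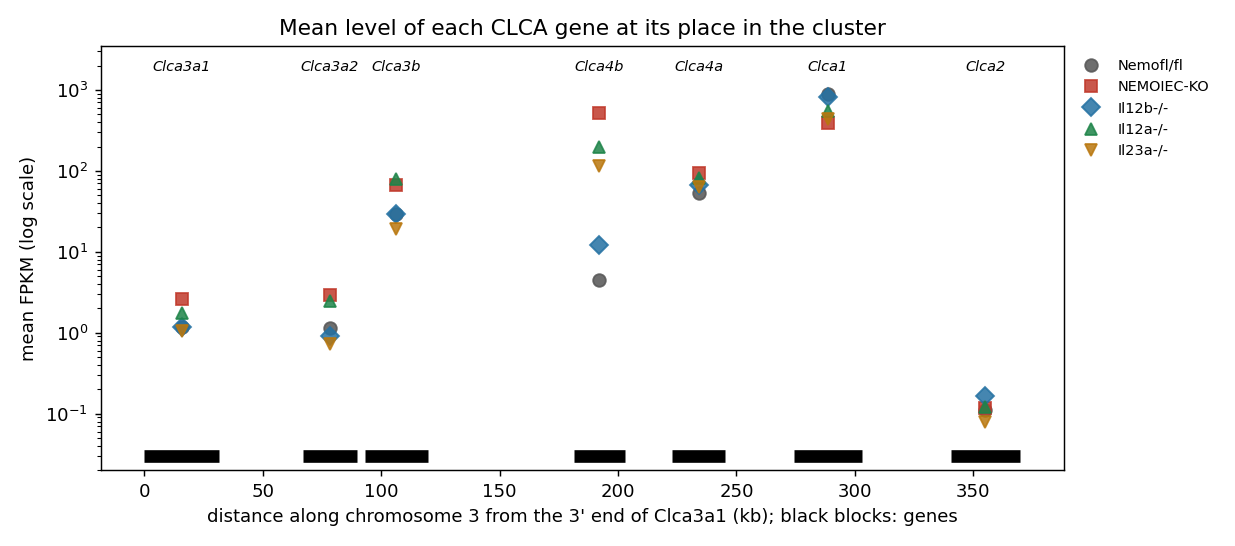
Mean FPKM of each CLCA gene (log scale, n = 5 libraries a genotype) above its place in the cluster, with distance in kb and genes as black blocks. Clca1 was high in all genotypes, Clca2 stayed under 1 FPKM, and Clca4b spanned from 4.46 FPKM in Nemofl/fl to 512 FPKM in NEMOIEC-KO.

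Summed FPKM lay between 653776 and 744280 per library (median 685333), and 13529 to 14374 genes reached 1 FPKM. Read counts are not in the table, so absolute depth is unknown. Relative depth ranged from 0.705 to 1.157. Ikbkg had 9.08 ± 1.14 FPKM (SD, n = 5) in Nemofl/fl and 3.34 to 4.08 FPKM on average in the 4 other groups. RNA of Il12b was higher in the libraries labelled Il12b-/- (0.994 ± 0.223 FPKM) than in NEMOIEC-KO (0.171 ± 0.0799), RNA of Il12a was higher in those labelled Il12a-/- (1.2 ± 0.586 against 0.421 ± 0.313), and Il23a was at 0.214 ± 0.0427 against 0.311 ± 0.308. Whole-gene values cannot show a partial deletion, so these values neither bear out nor contradict the double mutant labels. The double mutant names stand throughout for libraries labelled so. Across all tested genes, 2 libraries of the Il12b-/- and Il12a-/- groups correlated more with the NEMOIEC-KO mean than with the mean of the rest of their own group: Il12a-/- replicate 1 (r of 0.986 against 0.969) and Il12b-/- replicate 2 (0.974 against 0.970). The second correlated still more with the Il23a-/- mean (0.98). By small margins the same held for Il23a-/- replicates 1 (0.98 against 0.976), 4 (0.985 against 0.984) and 5 (0.98 against 0.979). These were kept where the first 2 were left out together. All Nemofl/fl libraries and 3 of 5 NEMOIEC-KO libraries had 1 library code in the labels. The other NEMOIEC-KO libraries and all double mutants except Il23a-/- replicate 5 had another. RNA of Xist exceeded that of the Y-linked gene used beside it in 0 of 5 Nemofl/fl, 1 of 5 NEMOIEC-KO, 2 of 5 Il12b-/-, 2 of 5 Il12a-/- and 4 of 5 Il23a-/- libraries, so sex moved with genotype.

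The plot of FPKM by library shows the levels on which the comparisons rest. FPKM is scaled to transcript length, so levels of different genes can be set side by side. In Nemofl/fl colon the order of the family by mean level was Clca1, Clca4a, Clca3b, Clca4b, Clca3a1, Clca3a2 and Clca2. Clca1, Clca3b, Clca4a and Clca4b exceeded 1 FPKM in all 25 libraries.

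**Figure D2:**
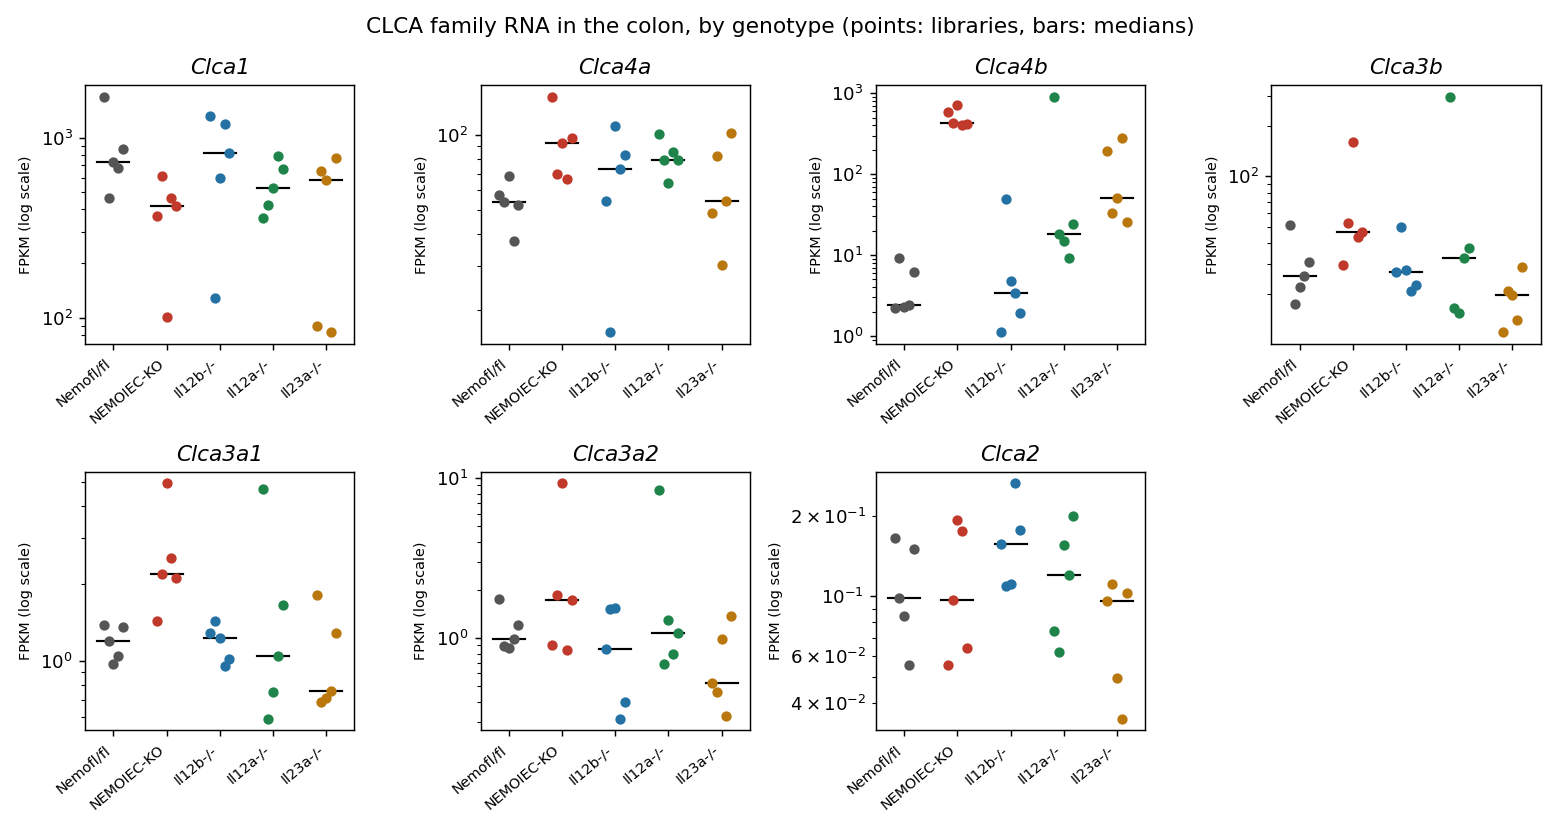
FPKM (log scale) of the 7 CLCA genes in each of 25 libraries, 5 a genotype, with bars at the group medians. Clca4b in the 5 NEMOIEC-KO libraries (401 to 720 FPKM) lay above every library of the other groups except Il12a-/- replicate 1 at 907 FPKM.

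Clca4b, a close relative of the enterocyte gene Clca4a, was low in Nemofl/fl colon and among the abundant transcripts of NEMOIEC-KO colon. In Nemofl/fl replicates 1 to 5 it had 2.22, 9.23, 2.28, 2.43 and 6.12 FPKM. In NEMOIEC-KO it had 593, 428, 720, 401 and 416 FPKM. The groups were far apart, with a ratio of means of 115, and all 5 NEMOIEC-KO libraries lay above all 5 of Nemofl/fl. The log2 fold change, of FPKM + 0.5 here and throughout, was 6.87 ± 0.99 (SE). Ranked by FPKM within a library, Clca4b moved from a mean rank of 10335 in Nemofl/fl to 222 in NEMOIEC-KO.

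The double mutants differed in how Clca4b was spread over their libraries. In Il12b-/- it had 1.12, 50, 4.78, 3.44 and 1.94 FPKM, and in Il12a-/- 907, 18.3, 15.0, 9.19 and 24.5 FPKM. In Il23a-/- it had 191, 33.1, 51.4, 278 and 25.4 FPKM. Thus 4 of 5 Il12b-/- libraries were within the range of Nemofl/fl or under it, 4 of 5 Il12a-/- libraries were between 9.19 and 24.5 FPKM, and all 5 Il23a-/- libraries lay above every Nemofl/fl library and below every NEMOIEC-KO library. Group medians ran from 428 FPKM in NEMOIEC-KO through 51.4 in Il23a-/-, 18.3 in Il12a-/- and 3.44 in Il12b-/- to 2.43 in Nemofl/fl. By mean, Il12a-/- (195 ± 398 FPKM) stood above Il23a-/- (116 ± 113), a place set by its replicate 1.

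Against NEMOIEC-KO, the log2 fold change of Clca4b was -6.56 ± 0.99 in Il12b-/-, with all 5 libraries below all of NEMOIEC-KO. In Il12a-/- it fell by 3.77 ± 0.99 on the log2 scale (limma adjusted p = 0.022), although the groups overlapped at replicate 1. Without that library the change was -4.93 (adjusted p = 0.00022), whereas the call ended without NEMOIEC-KO replicate 3 or without Il12a-/- replicate 2, 3, 4 or 5 (adjusted p up to 0.067). It also ended in a fit of only the 2 groups (0.074), with the library code as a term (0.15) and within 1 library code (0.25). In Il23a-/- the value was -2.73 ± 0.99 and did not pass the test (adjusted p = 0.29), although the groups did not overlap. When Il12a-/- replicate 1 and Il12b-/- replicate 2 were both left out, a choice made from measured values, this adjusted p was 0.024. Neither library is in these 2 groups, so their means stayed the same and the spread estimated over all groups changed. The 22 other settings gave no call. Adjusted p there was 0.22 to 0.48 with 1 library left out and up to 0.67 otherwise.

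Against Nemofl/fl, Clca4b was higher in Il23a-/- by 4.14 ± 0.99 (limma adjusted p = 0.0053), with all 5 libraries above all of Nemofl/fl. The adjusted p was 0.11 with the library code as a term and 0.060 with sex-linked RNA as a term. The differences in Il12a-/- (3.09 ± 0.99, adjusted p = 0.099) and Il12b-/- (0.31 ± 0.99, adjusted p = 0.93) did not pass. Among the double mutants, Clca4b was higher in Il23a-/- than in Il12b-/- by 3.83 ± 0.99 (adjusted p = 0.029), a call kept in 12 other settings and lost in 11 (adjusted p = 0.052 to 0.096). The Il12b-/- values in it are among those that chose the family. Il12a-/- against Il12b-/- (2.78 ± 0.99, adjusted p = 0.46) and Il23a-/- against Il12a-/- (1.05 ± 0.99, adjusted p = 0.58) did not pass. Il12a-/- replicate 1 adds to the spread in both. All Il23a-/- libraries (25.4 to 278 FPKM) lay above every Il12a-/- library but that one (9.19 to 24.5 FPKM). That comparison was called in 1 setting only, without Il12a-/- replicate 1 and Il12b-/- replicate 2 (adjusted p = 0.015), a choice made from measured values.

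Clca1, the goblet cell member, was the most abundant CLCA transcript of control colon and went the other way in its means. Its levels were 1687, 459, 728, 682 and 866 FPKM (Nemofl/fl) and 369, 612, 101, 463 and 415 FPKM (NEMOIEC-KO). The ranges overlapped between 459 and 612 FPKM, and the log2 fold change was -1.25 ± 0.66. In the double mutants it had 1312, 129, 595, 1193 and 821 FPKM (Il12b-/-), 357, 420, 528, 792 and 667 FPKM (Il12a-/-) and 89.6, 649, 580, 83.3 and 775 FPKM (Il23a-/-). Il12b-/- and Il23a-/- each held libraries far under the rest (129 FPKM in the first, 83.3 and 89.6 in the second), so the mean described few single mice. Against NEMOIEC-KO the log2 fold changes were 0.90 ± 0.66 in Il12b-/-, 0.65 ± 0.66 in Il12a-/- (limma adjusted p = 0.54) and -0.20 ± 0.66 in Il23a-/- (adjusted p = 0.97). Against Nemofl/fl the lowest adjusted p was 0.097, in Il23a-/- (-1.45 ± 0.66).

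Clca4a, which shares most of its sequence with Clca4b, was steady by comparison. Levels were 57.7, 53.8, 68.4, 37.5 and 52.4 FPKM (Nemofl/fl) and 142, 69.7, 92.8, 66.7 and 97.2 FPKM (NEMOIEC-KO), a log2 fold change of 0.76 ± 0.37 with 1 Nemofl/fl library inside the NEMOIEC-KO range. The double mutants averaged 67.1 ± 34.4 (Il12b-/-), 81.8 ± 13.4 (Il12a-/-) and 63.4 ± 28.3 FPKM (Il23a-/-). The lowest library of all was Il12b-/- replicate 2 at 16.3 FPKM, the same library that was highest for Clca4b in its group. No comparison of Clca4a with a double mutant passed the test. Clca4a thus ranged 16.3 to 142 FPKM over 25 libraries while Clca4b ranged 1.12 to 907.

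Clca3b, Clca3a1 and Clca3a2 form the third branch, whose human counterpart is a pseudogene. Clca3b had 51.3, 17.4, 22.0, 25.5 and 31.0 FPKM (Nemofl/fl) and 29.5, 52.4, 161, 43.3 and 46.4 FPKM (NEMOIEC-KO), a log2 fold change of 0.99 ± 0.57. In Il12a-/- it had 298, 16.3, 15.4, 32.6 and 37.5 FPKM. A single library thus exceeded the others of its group by far in both NEMOIEC-KO (replicate 3) and Il12a-/- (replicate 1). Clca3b averaged 29.5 ± 11.8 FPKM in Il12b-/- and 19.0 ± 6.65 in Il23a-/-, whose 5 libraries (11.8 to 28.9) all lay below the lowest of NEMOIEC-KO, but the difference did not pass (-1.58 ± 0.57, limma adjusted p = 0.28).

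Clca3a1, described in lymphatic endothelium, was low throughout, between 0.593 and 4.92 FPKM. It had 1.38, 1.19, 0.967, 1.04 and 1.35 FPKM (Nemofl/fl) and 1.43, 2.17, 4.92, 2.51 and 2.1 FPKM (NEMOIEC-KO), so every NEMOIEC-KO library was above every Nemofl/fl library, the closest by little (0.81 ± 0.31). Il12b-/- libraries (0.955 to 1.43 FPKM) were all below NEMOIEC-KO (-0.81 ± 0.31). The test was not passed in Il12a-/- (-0.64 ± 0.31, limma adjusted p = 0.17) or Il23a-/- (-0.97 ± 0.31, adjusted p = 0.21). Il12a-/- replicate 1 was the highest of its group in Clca3a1 (4.69 FPKM) and Clca3b (298 FPKM), so leaving it out lowers that group's means. Without it their log2 fold changes against NEMOIEC-KO were -1.01 (adjusted p = 0.0052) and -1.21 (adjusted p = 0.033). With it they were -0.64 and -0.48 (adjusted p = 0.17 and 0.61). Calls over all genes rose from 1851 to 4836 in that step, so these 2 calls are a description.

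Clca3a2 stood between 0.313 and 9.25 FPKM, and the libraries high in Clca3b were high in it too. It had 1.75, 0.894, 0.872, 0.988 and 1.2 FPKM (Nemofl/fl), 0.909, 1.86, 9.25, 0.838 and 1.73 FPKM (NEMOIEC-KO), and 8.38, 0.692, 1.30, 0.797 and 1.07 FPKM (Il12a-/-). Log2 fold changes were 0.63 ± 0.50 in NEMOIEC-KO against Nemofl/fl and -0.92, -0.26 and -1.08 (SE 0.50 each) in Il12b-/-, Il12a-/- and Il23a-/- against NEMOIEC-KO. Clca2 was at most 0.264 FPKM, with a median of 0.109, and no ratio is given for it.

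Calls among the 6 tested members stand here beside the share over the whole table. In NEMOIEC-KO against Nemofl/fl 1 of 6 members (Clca4b) passed the threshold, where 32.2% of all genes did (11.9% higher, 20.3% lower). In Il12b-/- against NEMOIEC-KO 1 of 6 (Clca4b) passed beside 19.9% of all genes (14% higher, 5.94% lower). Nothing is read from these 2 counts, since Clca4b's values in them chose the family. In Il12a-/- against NEMOIEC-KO 1 of 6 (Clca4b) passed beside 9.61% (5.61% higher, 4% lower), and in Il23a-/- against NEMOIEC-KO 0 of 6 beside 0.083% (0.0467% higher, 0.0363% lower). Against Nemofl/fl, 0 of 6 passed in Il12b-/- (0.369% of all genes), 0 of 6 in Il12a-/- (1.34%) and 1 of 6 in Il23a-/- (29.5%). Between double mutants, 0 of 6 passed in Il12a-/- against Il12b-/- (0.41%), 1 of 6 in Il23a-/- against Il12b-/- (5.11%) and 0 of 6 in Il23a-/- against Il12a-/- (1.16%). The single member called was Clca4b each time, and with 6 members a count of 0 or 1 cannot be told from most of these shares. Without Il12a-/- replicate 1 and Il12b-/- replicate 2, the first 4 comparisons had 4, 3, 3 and 3 of 6 members called. Clca3a1, Clca3b and Clca4b were among them in each. Calls over all 19266 genes rose as well, from 6202, 3833, 1851 and 16 to 7096, 5142, 5249 and 163. These 2 libraries were chosen for likeness to the NEMOIEC-KO mean, which can itself widen the Il12b-/- and Il12a-/- differences.

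**Figure D3:**
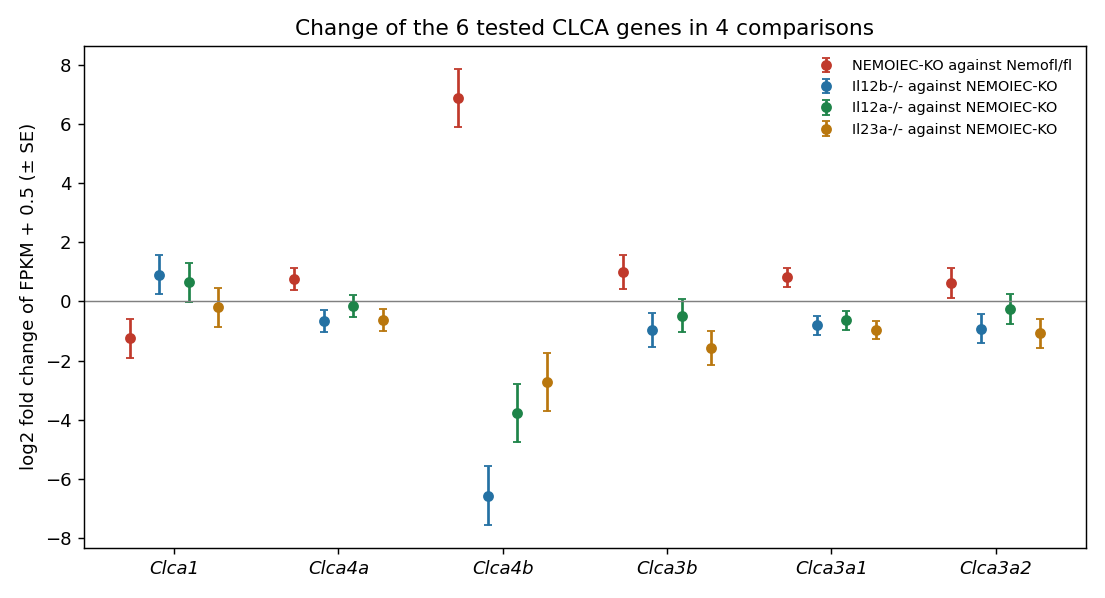
Log2 fold change of FPKM + 0.5 (points) with its SE (bars) for the 6 tested CLCA genes in 4 comparisons. Clca4b stood at 6.87 in NEMOIEC-KO against Nemofl/fl and at -6.56, -3.77 and -2.73 in Il12b-/-, Il12a-/- and Il23a-/- against NEMOIEC-KO, and all other members lay between -1.58 and 0.99.

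The summed family RNA differed less than its make-up. Summed CLCA FPKM was 975 ± 486 (SD, n = 5) for Nemofl/fl and 1070 ± 88.1 for NEMOIEC-KO. The double mutants had 921 ± 461 (Il12b-/-), 914 ± 452 (Il12a-/-) and 635 ± 245 (Il23a-/-), and the ranges overlapped. Clca1 made up 89.7% ± 3.3 (SD, n = 5) of that sum in Nemofl/fl but 36.8% ± 17.1 in NEMOIEC-KO, and Clca4b 0.613% ± 0.637 and 47.7% ± 11.7. In Il12b-/-, Il12a-/- and Il23a-/- Clca4b held 4.26% ± 8.86, 12.8% ± 23.1 and 26.9% ± 30.4. The plot of the make-up by library shows that these means join unlike mice: Clca4b was 54.1% of CLCA RNA in Il12a-/- replicate 1, 55.5% in Il23a-/- replicate 1 and 64.5% in Il23a-/- replicate 4, and 0.997% to 7.53% in the other libraries of those groups. Because Clca4b's level chose the family, its share in NEMOIEC-KO and Il12b-/- is a description.

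**Figure D4:**
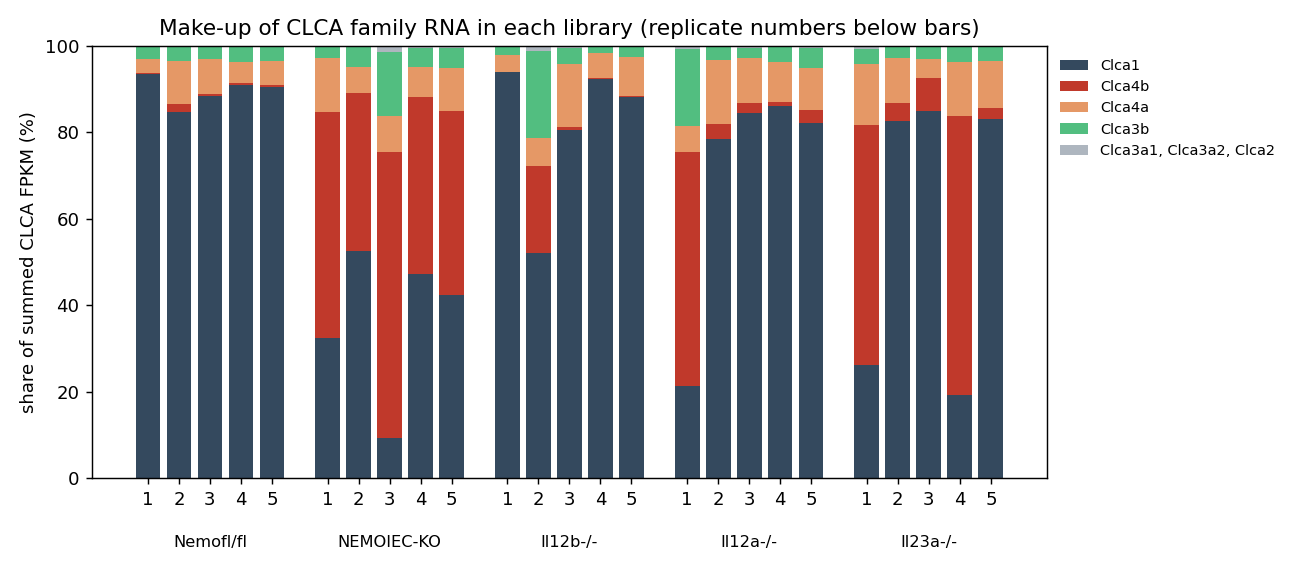
Share (%) of summed CLCA FPKM held by each gene in each of 25 libraries, with replicate numbers under the bars. Clca1 dominated all Nemofl/fl libraries, whereas Clca4b averaged 47.7% in NEMOIEC-KO.

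Within each of the 5 genotypes, the library with the least Clca1 was also the one with the most Clca4b: Nemofl/fl replicate 2 (459 and 9.23 FPKM), NEMOIEC-KO replicate 3 (101 and 720), Il12b-/- replicate 2 (129 and 50), Il12a-/- replicate 1 (357 and 907) and Il23a-/- replicate 4 (83.3 and 278). After subtraction of genotype means, Pearson's r of log2 values of Clca1 and Clca4b was -0.70 over 25 libraries, and -0.90 over 23 without Il12a-/- replicate 1 and NEMOIEC-KO replicate 3, left out after their values were seen. The points share libraries and their scaling, so r is a description. Clca3a2 and Clca3b had r of 0.88, Clca3a1 and Clca3b 0.84 and Clca3a1 and Clca3a2 0.80. Without the same 2 libraries these were 0.63, 0.46 and 0.35, so much of that likeness came from them. Clca4a and Clca4b, close in sequence, had r of -0.30, and -0.55 without those 2 libraries, but 0.20 over all 25 before genotype means were subtracted.

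Markers of some other cells moved with the same libraries, and those of others did not. The summed FPKM of 10 squamous epithelium markers was highest of its group in 4 of these 5 libraries and in the second place in Il23a-/- replicate 4. It was 95.4 in Nemofl/fl replicate 2 in a group with a median of 7.21, and 105 in Il12b-/- replicate 2 in a group with a median of 6.86. The sums ranged 4.26 to 95.4 FPKM (Nemofl/fl), 23.4 to 65.0 (NEMOIEC-KO), 5.49 to 105 (Il12b-/-), 10.7 to 50.3 (Il12a-/-) and 11.4 to 42.8 (Il23a-/-), and Sprr3 was listed at 0 in all libraries of each group but Nemofl/fl. Of those 10 markers 5 were tested, and 1 was higher and 1 lower in NEMOIEC-KO against Nemofl/fl, beside 11.9% and 20.3% of all genes. Summed neutrophil and T cell markers were highest in 4 of the 5 libraries too, and in Il23a-/- replicate 4 they ranked 2 and 4. Plasma cell markers were the lowest of their group in Nemofl/fl replicate 2 and Il12b-/- replicate 2 but the highest in Il12a-/- replicate 1. Smooth muscle markers were the highest in Nemofl/fl replicate 2 and the lowest in the rest of these libraries. The summed goblet cell markers were the lowest of their group in 4 of the 5 but the highest in Il12a-/- replicate 1 (14197 FPKM, group median 11207). The part of these cells in the CLCA levels was not tested.

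**Figure D5:**
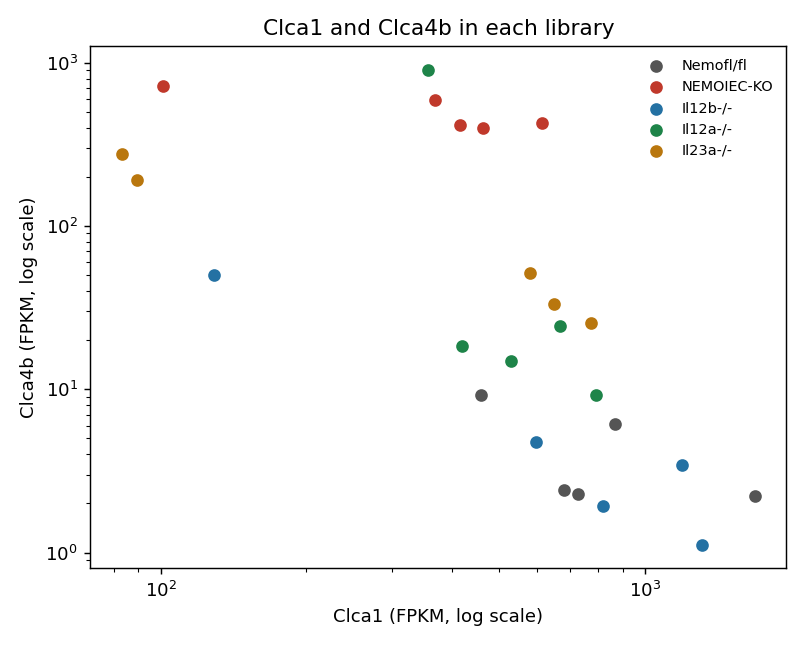
Clca1 against Clca4b (FPKM, both axes logarithmic) in 25 libraries, coloured by genotype. In each genotype the library lowest in Clca1 is the highest in Clca4b, as in Il23a-/- replicate 4 with 83.3 and 278 FPKM.

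Genes with the pattern most like each member were taken by Pearson's r of log2 values over the 25 libraries, as a description. Nearest to Clca1 were Scin, the actin-severing protein scinderin (r of 0.98), and Slc9a2, a sodium-proton exchanger (0.95), and both remained first after subtraction of genotype means (0.98 and 0.95), with Fer1l6 next (0.95). Scin had a mean of 27.9 FPKM for Nemofl/fl and 13.4 for NEMOIEC-KO. Nearest to Clca4b were Ly6a, which encodes the surface protein Sca-1 (0.96), Dhrs9, a retinol dehydrogenase (0.96), and AI661453 (0.96). Mean Ly6a was 321 FPKM for Nemofl/fl and 2577 for NEMOIEC-KO. After subtraction of genotype means the first was Ada, adenosine deaminase (0.92), and Ly6a had 0.90. The nearest genes to Clca3a2 and Clca3b were each other (0.89), and Clca3a1 was nearest to Clca3b (0.86). Nearest to Clca4a was Atp12a, a proton pump subunit (0.76), and after subtraction of genotype means Ndel1 (0.86) and Mcl1, an inhibitor of apoptosis (0.83).

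Of 12 tested genes around the cluster, 3 were called in NEMOIEC-KO against Nemofl/fl (32.2% of all genes were), 1 in Il12b-/- (19.9%), 1 in Il12a-/- (9.61%) and 0 in Il23a-/- (0.083%) against NEMOIEC-KO. With 12 genes these counts are near the shares over all genes, and nothing particular to the neighbours is read from them. The pseudogene Clca4c-ps had means of 0.133 FPKM (Nemofl/fl), 1.4 (NEMOIEC-KO), 0.167 (Il12b-/-), 1.56 (Il12a-/-) and 0.237 (Il23a-/-), with a log2 fold change of 1.43 ± 0.44 in NEMOIEC-KO against Nemofl/fl. It shares 15.8% of its 76-base stretches with Clca4a or Clca4b, so reads of those genes could be counted there, and no p-value is given for it. The others called there were Gm34866, antisense within Clca3a1 (0.73 ± 0.25, limma adjusted p = 0.032), and the collagen gene Col24a1, which fell by 0.81 ± 0.19 (adjusted p = 0.0035).

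Other genes of mucus and anion transport were read for context, from lists chosen with earlier results of these data known. Of 18 goblet cell and mucus genes, 6 rose and 2 fell in NEMOIEC-KO against Nemofl/fl (median log2 fold change 0.16, against -0.08 over all genes). Retnlb, an antimicrobial goblet cell protein, had mean levels of 0.749 ± 0.703 and 185 ± 178 FPKM (SD, n = 5, limma adjusted p = 8.1e-04). Atoh1, the secretory lineage factor, fell by 0.72 (adjusted p = 0.045). The p-values of genes picked from these lists by size of change, here and in the next paragraph, are a description. Under median-of-ratios scaling 6 rose and 0 fell, so the call of Atoh1 was lost there. The mucin Muc2 (984 and 1457 FPKM) was not called. In Il12b-/- 1 rose and 3 fell against NEMOIEC-KO, in Il12a-/- 2 and 1, and in Il23a-/- 0 and 0. Over all genes 11.9% rose and 20.3% fell in NEMOIEC-KO against Nemofl/fl. Against NEMOIEC-KO, 14% rose and 5.94% fell in Il12b-/-, and 5.61% rose and 4% fell in Il12a-/-.

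Of 17 tested genes for anion transport and its drivers, 0 rose and 7 fell in NEMOIEC-KO against Nemofl/fl (median -0.38), where 20.3% of all genes fell. Under median-of-ratios scaling 5 fell. The chloride-bicarbonate exchanger Slc26a3, also in the list of surface colonocyte genes, fell by 2.13 and the bicarbonate cotransporter Slc4a4 by 1.55 (limma adjusted p = 0.0043 and 0.0017). Ano1, the chloride channel that Clca1 is known to act on, averaged 76.4 and 52.3 FPKM and was not called. In Il12b-/- 4 rose and 0 fell against NEMOIEC-KO, among them the potassium channels Kcnq1 (1.16) and Kcnn4 (0.66), and in Il12a-/- 3 rose. Under median-of-ratios scaling 4 rose and 1 fell in Il12b-/-, and 1 rose in Il12a-/-. Without that scaling 14% of all genes rose in Il12b-/- and 5.61% in Il12a-/- against NEMOIEC-KO.

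Genes of 2 cytokine axes that act on epithelium were counted as well. Of 12 interferon-gamma axis genes, 10 rose in NEMOIEC-KO against Nemofl/fl (median 2.97), 10 fell in Il12b-/- and 10 in Il12a-/- against NEMOIEC-KO (medians -2.59 and -2), and none was called in Il23a-/- (median -0.30). Of 13 type 2 axis genes 9 were tested, of which 4 rose and 1 fell in NEMOIEC-KO, 1 rose (0 under both other scalings) and 4 fell in Il12b-/-, and 4 fell in Il12a-/-. Il4ra, the receptor chain for IL-4 and IL-13, rose by 1.63 and Il13ra2, the decoy receptor for IL-13, fell by 1.24 in NEMOIEC-KO. Of 14 surface colonocyte genes 4 rose and 7 fell, among them Krt20 (1.14) and Cyp2c55 (fell by 4.97). Over all genes 11.9% rose and 20.3% fell in NEMOIEC-KO against Nemofl/fl. Against NEMOIEC-KO, 14% rose and 5.94% fell in Il12b-/-, 4% fell in Il12a-/- and 0.083% were called in Il23a-/-.

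For cell composition, 5 of 7 epithelial markers (3 under quantile normalization) rose and 0 fell in NEMOIEC-KO against Nemofl/fl, as did 7 of 7 T cell, 5 of 5 plasma cell and 4 of 6 neutrophil markers, while 5 of 8 smooth muscle markers fell (2 of 8 under median-of-ratios scaling). None of 7 lymphatic endothelium markers was called there, and 1 of 6 blood endothelium markers fell. In Il12b-/- against NEMOIEC-KO, 4 of 7 epithelial, 5 of 7 T cell and 3 of 6 neutrophil markers fell. There 2 of 7 lymphatic and 2 of 6 blood endothelium markers rose (1 of each under both other scalings). Over all genes 11.9% rose and 20.3% fell in NEMOIEC-KO against Nemofl/fl, and 14% rose and 5.94% fell in Il12b-/- against NEMOIEC-KO. With so few markers the endothelium counts cannot be told from these shares. How far the marker shifts bear on the CLCA levels was not tested. The direction of all calls moved with scaling: under median-of-ratios scaling 47.0% of called genes were higher in NEMOIEC-KO against Nemofl/fl, against 36.9% here, and the share in Il12b-/-, Il12a-/- and Il23a-/- against NEMOIEC-KO was 48.1%, 39.1% and 37.5%, against 70.2%, 58.3% and 56.2%. Every member kept the sign of its log2 fold change against NEMOIEC-KO, and in NEMOIEC-KO against Nemofl/fl, under both other scalings.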

How the data were processed

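The deposited values are FPKM per gene and library, made by the authors from stranded, poly(A)-selected RNA-seq. The tools were TopHat2 2.0.10, Cufflinks 2.1.1 and DESeq2 1.10.1 with build GRCm38, per the submitters' processing notes. The role of each program and the annotation release are not given in the sources used here.

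FPKM were transformed to log2(FPKM + 0.5), which understates changes of low genes. A gene was tested if 5 or more libraries reached 0.2 FPKM, which 19266 genes did. All 25 libraries entered 1 fit with 1 mean per genotype in limma 3.58.1 (R 4.3.3, trended empirical Bayes, 20 residual degrees of freedom), with 10 two-sided comparisons and Benjamini-Hochberg adjustment over all genes tested in each (threshold 0.05). The fit was tested on simulated data. Members and lists were chosen with earlier results of these data known. Some of the nearest 5 genes by correlation and of the tested neighbours within 500 kb were named beside the members. So were some of the called list genes with the largest changes, none of them from the interferon-gamma axis. Muc2 and Ano1 were named for context, chosen after their values were seen. Only relative depth could be read, from the steps between low FPKM values. Replicate numbers did not pair libraries: 50 same-numbered pairs had a median correlation of 0.0071. Alternatives covered the pseudocount, filter, scaling, trend, replicate block, library code, sex-linked RNA, only 2 groups and each library left out; leaving out 2 libraries together was chosen after seeing the data. Reading frames and shared stretches came from GENCODE M21.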

Additional observations from a re-analysis of the deposited data

Results flagged for a closer look

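In 35 groups of 5 libraries (7 genes, 5 genotypes), 8 held a library far above the other 4. There the gap to the next library exceeded 0.71 of the range of untransformed FPKM, the critical value of Dixon's test. That value marks about 1 group in 20 only for normal values in independent groups. FPKM need not be normal and the groups share libraries, so the 8 are a description and are not set against that rate. All 8 came from 3 libraries. Il12a-/- replicate 1 stood apart in Clca4b (907 FPKM, next 24.5), Clca3b (298, next 37.5), Clca3a2 (8.38, next 1.3) and Clca3a1 (4.69, next 1.65). NEMOIEC-KO replicate 3 stood apart in Clca3b (161, next 52.4) and Clca3a2 (9.25, next 1.86). Il12b-/- replicate 2 stood apart in Clca4b (50, next 4.78) and Clca3b (49.8, next 27.8).

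Between 2 double mutants, the change of Clca4b against NEMOIEC-KO was 3.83 higher on the log2 scale (SE 0.99, limma adjusted p = 0.029) in Il23a-/- than in Il12b-/-. The call was lost in 11 other settings and kept in 12 (adjusted p up to 0.096), and the Il12b-/- values are among those that chose the family.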

How the results depend on the processing

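The numbers of members called were 1, 1, 1 and 0 of 6 in NEMOIEC-KO against Nemofl/fl and in Il12b-/-, Il12a-/- and Il23a-/- against NEMOIEC-KO. In NEMOIEC-KO against Nemofl/fl the count was 2 with pseudocount 1, a filter at 1 FPKM, median-of-ratios scaling, quantile normalization or the library code as a term, 3 with only the 2 groups or within 1 library code, and 1 to 2 with 1 library left out. In Il12b-/- against NEMOIEC-KO it was 2 with quantile normalization or only the 2 groups, and 1 to 2 with 1 library left out. In Il12a-/- against NEMOIEC-KO it was 0 with the library code as a term, with only the 2 groups or within 1 code, and 0 to 3 with 1 library left out: 3 without Il12a-/- replicate 1, and 0 without NEMOIEC-KO replicate 3 or Il12a-/- replicate 2, 3, 4 or 5. In Il23a-/- against Nemofl/fl the count of 1 was 0 with the library code or sex-linked RNA as a term, and 1 to 2 with 1 library left out. In Il23a-/- against Il12b-/- the count of 1 was 0 with no filter, sex-linked RNA as a term, only the 2 groups or within 1 code, and 0 to 1 with 1 library left out (0 without Il12b-/- replicate 1, 3, 4 or 5 or Il23a-/- replicate 1, 3 or 4). With Il12a-/- replicate 1 and Il12b-/- replicate 2 both left out, chosen after seeing the data, the counts in the first 4 comparisons were 4, 3, 3 and 3, and 1 in Il23a-/- against Il12a-/-. Calls over all 19266 genes were then 7096, 5142, 5249 and 163, and 3009 in Il23a-/- against Il12a-/-. With the other settings, calls in NEMOIEC-KO against Nemofl/fl went from 6202 to 6183 (pseudocount 1), 6058 (median-of-ratios scaling) or 5907 (quantile normalization). They were 5025 with the library code as a term, 6164 with only the 2 groups and 4810 within 1 code. The filter at 1 FPKM gave 5531 of 15028 genes. In Il12b-/- against NEMOIEC-KO they went from 3833 to 3056 with quantile normalization and 4081 with only the 2 groups. In Il12a-/- against NEMOIEC-KO calls over all genes also moved, from 1851 to 177 with the library code as a term. They were 364 with only the 2 groups, 31 within 1 code and 4836 without Il12a-/- replicate 1. Without NEMOIEC-KO replicate 3 they were 688, and without Il12a-/- replicate 2, 3, 4 or 5 they were 587 to 836. In Il23a-/- against Nemofl/fl they fell from 5686 to 1591 with the library code and 1167 with sex-linked RNA as a term. In Il23a-/- against Il12b-/- they fell from 985 to 568 with sex-linked RNA as a term and 397 with only the 2 groups. Within 1 code they were 877, and 561 of 31239 with no filter. The cause was not tested.

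The sign turned, without a call, for Clca3a2 in Il12a-/- against NEMOIEC-KO (0.19 with the library code as a term and within 1 code; -0.79 to 0.23 with 1 library left out), for Clca4a there (-0.26 to 0.01 with 1 left out), for Clca1 in Il23a-/- against NEMOIEC-KO (0.41 with sex-linked RNA as a term, -0.63 to 0.25 with 1 left out), and for Clca4b in Il12b-/- against Nemofl/fl (-0.51 to 0.74 with 1 left out, -0.51 without Il12b-/- replicate 2, alone or with Il12a-/- replicate 1).

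The replicate block left the counts at 1, 1, 1 and 0 in the first 4 comparisons and changed no member's call. Same-numbered libraries were no more alike (median correlation 0.0071) than others (0.0086). A fit within 1 library code could not be made for Nemofl/fl against a double mutant, since no code held libraries of both. With the code as a term, such a comparison rests on the NEMOIEC-KO libraries, 3 in 1 code and 2 in another. It also takes the effect of the code to be the same in all genotypes. The code of Il23a-/- replicate 5 held no other library. Depth limits Clca2, Clca3a1 and Clca3a2, near or under 1 FPKM.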
